A study of Homo sapiens with 16 samples.

Results

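Glucose enters the cell through facilitative transporters, is trapped by hexokinase as glucose 6-phosphate and is committed to glycolysis by phosphofructokinase. Loci of 8 genes of this route were examined for binding of hypoxia-inducible factor (HIF): the transporters SLC2A1 (GLUT1) and SLC2A3 (GLUT3), the hexokinases HK1 and HK2, the phosphofructokinase subunits PFKL and PFKP, and PFKFB3 and PFKFB4, which make and degrade the allosteric activator of phosphofructokinase. Peaks were taken when their centre lay within 50 kb of the start of any protein-coding transcript of the gene (GENCODE on GRCh37), whichever gene was nearest, which kept 148 of 23398 peaks. Merged wherever they overlapped, these peaks formed 24 of the 11664 sites of the series, 18 of them found in at least 2 libraries and 6 in 1 library. The genes were a named list and were not picked by any threshold on the measurements, but the list was chosen with earlier results of these data known.

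The peaks came from 16 chromatin immunoprecipitation (ChIP-seq) libraries of established human cancer cell lines, namely A549 (lung), HCT116 (colorectal), PC3 (prostate) and T47D (breast), all kept in 0.5% oxygen for 16 hours. Chromatin was precipitated with rabbit polyclonal antibodies against HIF-1α (PM14) or HIF-2α (PM9), the alternative oxygen-regulated subunits, called isoforms here. There were 8 groups, a cell line with an isoform each, of 2 replicate libraries, numbered as in the labels. No library from cells in normal oxygen was analysed here, so the lists describe binding in hypoxia and no change on hypoxia.

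HIF is a dimer of an oxygen-labile α subunit, which escapes degradation in hypoxia, and a stable β subunit, and it binds DNA that carries the core motif RCGTG (ACGTG or GCGTG). Glycolytic enzymes and glucose transporters are among its best known targets, and raised glucose uptake is a familiar feature of hypoxic tumour cells. SLC2A1, HK2 and PFKFB4 are on the study's list of conserved HIF targets, which was chosen partly on these libraries. The paper also names PFKL and PFKP among genes bound by HIF and induced by hypoxia in most of its cell lines, again partly from these libraries. The presence of these genes below is therefore not independent evidence.

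The peak lists set the precision of everything that follows. They held 275 to 4505 peaks per library (382 to 4505 for HIF-1α, 275 to 1382 for HIF-2α). Read depth is unknown, and where a library has no peak the signal may simply have been under the threshold, which does not show absent binding. The peak caller's score was used only by rank: the score percentile of a peak is its rank among all peaks of its own library, 100 being the strongest, and a library with no peak at a site counted as 0. PC3 HIF-2α replicate 1 stood apart. It was the shortest list and held a peak near 1 of the 8 genes, against 7 in PC3 HIF-2α replicate 2. Gene counts over all cell lines, the number of called sites and some isoform differences are also given without it. Mean differences within PC3 and mean percentiles over all libraries include it, as 0 where it had no peak. The paper's methods call the replicates independent, but neither they nor the labels say whether replicates were separate cultures. The p-values therefore measure the spread between these libraries, which may be technical.

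The sequences below are those of the best supported site of each gene, the one with peaks in most libraries, and of 2 further SLC2A1 sites whose isoform or cell-line pattern is described later. Each is 200 bases of the GRCh37 plus strand taken as near to the middle of the merged site as annotated untranslated regions allowed. Capitals mark ACGTG or GCGTG on either strand (CACGT and CACGC on the strand shown). Distances are from the representative start site of the gene to the middle of the merged site.
SLC2A1, 0.4 kb downstream (chr1:43424013-43424212): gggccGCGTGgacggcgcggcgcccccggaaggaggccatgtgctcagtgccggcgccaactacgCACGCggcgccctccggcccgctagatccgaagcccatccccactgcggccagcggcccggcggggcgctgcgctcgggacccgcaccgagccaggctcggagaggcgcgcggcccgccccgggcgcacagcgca
SLC2A1, 3.9 kb upstream (chr1:43428379-43428578): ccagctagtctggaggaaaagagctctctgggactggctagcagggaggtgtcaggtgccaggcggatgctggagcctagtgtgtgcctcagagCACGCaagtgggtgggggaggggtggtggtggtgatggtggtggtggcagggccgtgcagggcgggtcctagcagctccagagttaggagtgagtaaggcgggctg
SLC2A1, 17.6 kb downstream (chr1:43406788-43406987): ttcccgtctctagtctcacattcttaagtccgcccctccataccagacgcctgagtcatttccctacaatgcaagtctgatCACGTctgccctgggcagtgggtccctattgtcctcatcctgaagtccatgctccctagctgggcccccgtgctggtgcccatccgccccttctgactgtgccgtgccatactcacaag
SLC2A3, 34.6 kb upstream (chr12:8123328-8123527): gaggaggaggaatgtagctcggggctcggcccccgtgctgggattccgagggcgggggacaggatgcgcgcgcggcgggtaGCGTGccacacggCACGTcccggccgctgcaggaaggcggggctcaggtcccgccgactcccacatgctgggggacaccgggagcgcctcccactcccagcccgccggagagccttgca
HK1, 0.2 kb upstream (chr10:71078310-71078509): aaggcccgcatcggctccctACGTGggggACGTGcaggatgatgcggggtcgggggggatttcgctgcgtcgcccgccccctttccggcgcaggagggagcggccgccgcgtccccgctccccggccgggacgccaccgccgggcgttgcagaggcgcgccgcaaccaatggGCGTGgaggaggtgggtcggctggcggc
HK2, at the start (chr2:75061052-75061251): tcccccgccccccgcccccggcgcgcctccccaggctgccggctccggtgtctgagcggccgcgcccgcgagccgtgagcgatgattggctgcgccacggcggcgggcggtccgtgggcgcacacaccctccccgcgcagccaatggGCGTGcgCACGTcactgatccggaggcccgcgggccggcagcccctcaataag
PFKFB3, 1.0 kb upstream (chr10:6243799-6243998): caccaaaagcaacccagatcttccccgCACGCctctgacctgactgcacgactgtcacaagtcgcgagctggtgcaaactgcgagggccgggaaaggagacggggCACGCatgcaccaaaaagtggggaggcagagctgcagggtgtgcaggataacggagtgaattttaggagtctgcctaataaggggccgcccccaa
PFKFB4, 0.4 kb upstream (chr3:48594546-48594745): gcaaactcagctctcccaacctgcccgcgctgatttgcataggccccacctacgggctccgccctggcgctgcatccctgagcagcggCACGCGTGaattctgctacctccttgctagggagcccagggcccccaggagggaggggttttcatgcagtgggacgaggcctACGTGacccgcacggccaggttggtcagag
PFKL, 0.3 kb downstream (chr21:45720173-45720372): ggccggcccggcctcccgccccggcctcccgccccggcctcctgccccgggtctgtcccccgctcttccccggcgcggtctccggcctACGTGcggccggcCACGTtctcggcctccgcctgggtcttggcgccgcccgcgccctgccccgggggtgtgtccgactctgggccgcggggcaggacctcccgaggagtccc
PFKP, 0.8 kb downstream (chr10:3110462-3110661): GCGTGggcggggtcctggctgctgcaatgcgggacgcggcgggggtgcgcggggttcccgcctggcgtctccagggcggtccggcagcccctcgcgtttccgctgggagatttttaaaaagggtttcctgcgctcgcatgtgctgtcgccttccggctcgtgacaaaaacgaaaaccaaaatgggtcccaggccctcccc

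Several of these windows held paired copies of the motif. In PFKFB4 overlapping copies on opposite strands formed CACGCGTG, 6 bp from the middle of the site, with a further ACGTG in the window. In SLC2A3 a GCGTG and a CACGT lay close together at the centre, 5 bp from the middle at the nearest, and PFKL held ACGTG and CACGT within its central bases, also 5 bp away. HK1 carried a pair of ACGTG copies in the same orientation, and HK2 carried a GCGTG and a CACGT side by side just upstream of its start. The SLC2A1 site 3.9 kb upstream held a single copy over its whole length of 1324 bp, 5 bp from its middle.

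Over the 18 sites found in at least 2 libraries, 15 held RCGTG in the central 200 bp. The share among all 4722 sites of the series found in at least 2 libraries was 64.6%. The 3 sites without a copy in that window were PFKFB4 38.8 kb upstream, PFKP 28.0 kb downstream and the PFKP promoter site, where the nearest copy was 118 bp from the middle. In the central 500 bp the counts were 16 of 18 against 88.7% of all sites, and over whole sites 18 of 18 against 97.2%. The sites held 1 to 20 copies each, 56 of ACGTG and 94 of GCGTG in all, at a median of 3.64 copies per kb against 3.36 over all sites found in at least 2 libraries. A copy of these letters is a description of the sequence and does not show which base was bound.

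**Figure D1:**
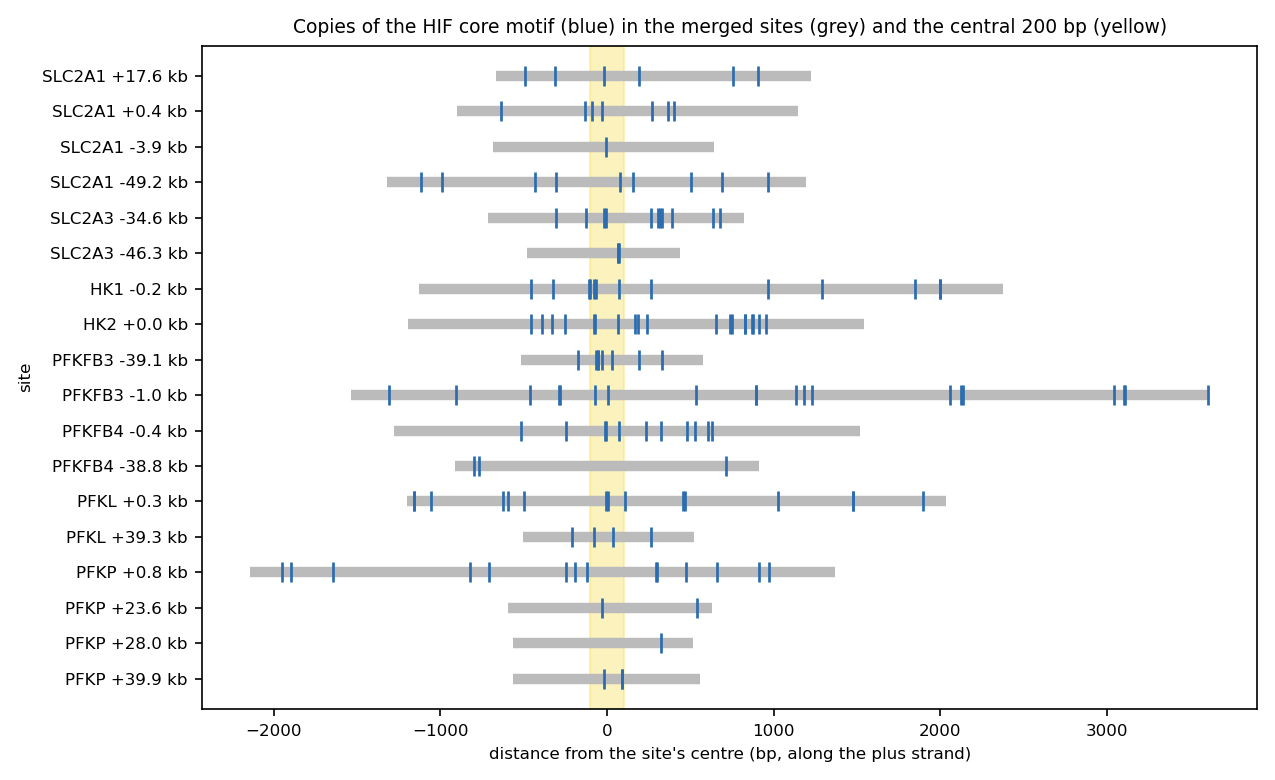
Position of ACGTG and GCGTG copies (blue ticks, either strand) in the 18 sites found in at least 2 libraries, against distance from the middle of the merged site in bp; grey bars are the merged sites and the yellow band is the central 200 bp. Copies fall in the yellow band in 15 of the 18 sites, and the SLC2A1 site 3.9 kb upstream has its single copy at the middle.

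For each cell line, genes with a peak within 50 kb in both replicates were counted, against the same count over all 19821 protein-coding genes. Under this rule the peaks of the replicates may lie at different sites, or nearest to another gene. For HIF-1α, 8 of the 8 genes met the rule in PC3, against 12.5% of all coding genes, and 8 in T47D, against 5.19%. In HCT116 it was 7 genes against 27.7%, PFKFB3 being the exception, and in A549 it was 5 genes against 2.6%, without HK1, PFKL and PFKP. For HIF-2α the numbers were 7 genes in HCT116 against 3.82% of coding genes, 6 in A549 against 4.64%, 4 in T47D against 1.31% and 1 in PC3 against 1.2%. The single gene in PC3 was SLC2A1. In HCT116, PFKFB3 counted through a different site in each replicate. In A549 replicate 3, PFKFB4 counted only through a site nearest to COL7A1. PC3 HIF-2α replicate 2 alone had peaks near 7 of the 8 genes, the exception being PFKP, and near 8.97% of coding genes.

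SLC2A1, SLC2A3, HK2 and PFKFB4 had a HIF-1α peak in both replicates of all 4 cell lines. This held for 1.52% of coding genes. For HIF-2α 0 of the 8 genes met that rule, against 0.288% of coding genes, and without PC3 HIF-2α replicate 1 SLC2A3, PFKFB3 and PFKFB4 met it, as did 0.479% of coding genes. PFKFB3 in HCT116 and PFKFB4 in A549 met it only through the peaks just described, not through a shared promoter site. The HIF-1α count also rested on A549, where leaving out replicate 2 brought in HK1, PFKL and PFKP for a total of 7 genes, with the share of coding genes at 2.47%. Libraries of either isoform with a peak within 50 kb numbered 15 of 16 for SLC2A3 and for PFKFB4, 14 for SLC2A1 and for PFKFB3, 13 for PFKL and for PFKP, 11 for HK2 and 9 for HK1. At least 15 libraries were reached by 0.449% of coding genes and at least 9 by 2.997%.

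**Figure D2:**
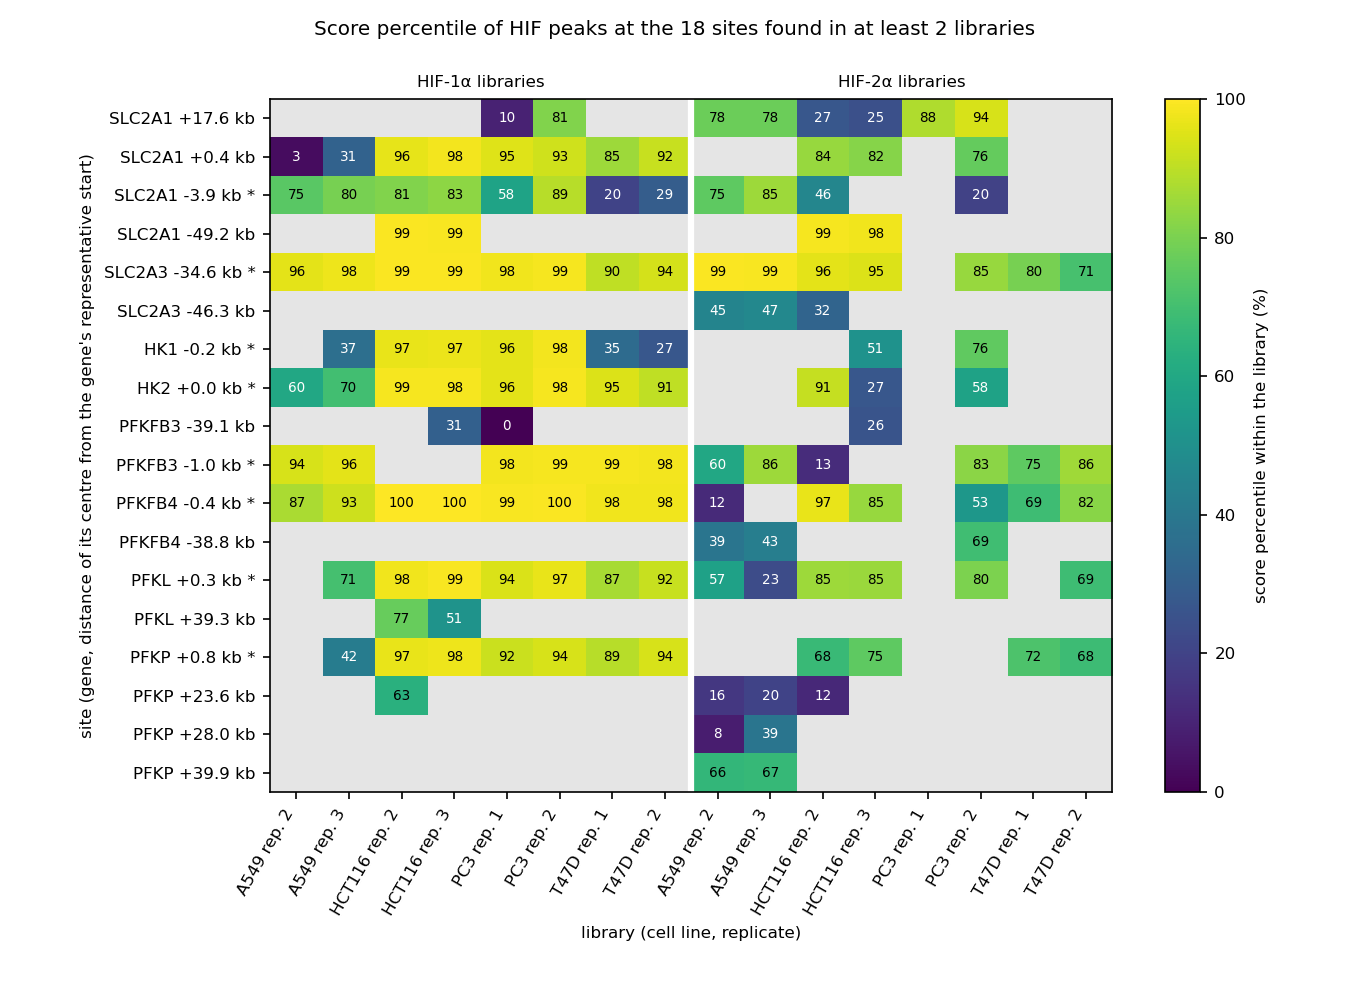
Score percentile (colour and number, %) at the 18 sites found in at least 2 libraries (rows, named by distance from the gene's representative start, minus being upstream and the asterisk marking the best supported site of a gene) in each of the 16 libraries (columns, HIF-1α left, HIF-2α right); grey cells have no peak. The HIF-1α columns are filled at most sites near a start, while the rows 46.3 kb upstream of SLC2A3, 38.8 kb upstream of PFKFB4 and 28.0 and 39.9 kb downstream of PFKP are filled in HIF-2α columns only, and that 17.6 kb downstream of SLC2A1 mainly there.

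SLC2A1, the main basal glucose transporter of many cell types, had 5 sites and the largest number of peaks of any of the genes, 36. Its promoter site (chr1:43423213-43425257) spanned the start and part of the first intron, and the start of the divergent non-coding transcript SLC2A1-DT lay 610 bp from its middle. For HIF-1α the percentiles there were 3.14 and 31.3 (A549), 96.3 and 98.4 (HCT116), 95.0 and 92.6 (PC3) and 85.4 and 91.6 (T47D). For HIF-2α they were 84.4 and 81.8 in HCT116 and 76.2 in PC3 replicate 2, and the other 5 libraries had no peak. Within every cell line the HIF-1α libraries were above the HIF-2α libraries with no overlap. The promoter site was high with HIF-1α outside A549 and low in A549, where neither HIF-2α library listed it.

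Another SLC2A1 site lay 3.9 kb upstream, outside every representative coding transcript (chr1:43427799-43429122), and A549 did list it with both isoforms. HIF-1α gave 74.6 and 79.7 (A549), 81.2 and 82.8 (HCT116), 58.0 and 89.4 (PC3) and 20.1 and 29.4 (T47D). HIF-2α gave 75.3 and 85.4 in A549, 45.7 in HCT116 replicate 2 and 19.6 in PC3 replicate 2. In A549 the isoforms overlapped at this site (HIF-1α minus HIF-2α of -3.21 percentage points), whereas in HCT116, PC3 and T47D the HIF-1α libraries were above the HIF-2α libraries by 59.1, 63.9 and 24.8 points on average.

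An intronic site, 17.6 kb downstream of the representative start and 2020 bp inside an alternative transcript start (chr1:43406223-43408115), had the opposite isoform pattern. HIF-2α gave 77.6 and 77.6 in A549, 27.3 and 24.6 in HCT116, and 88.0 and 94.0 in PC3, the last pair including the only peak that PC3 HIF-2α replicate 1 held near any of the 8 genes. HIF-1α gave 9.76 and 81.2 in PC3 and no peak elsewhere, and T47D had no peak with either isoform. The HIF-2α libraries were above the HIF-1α libraries in A549, HCT116 and PC3, by 77.6, 25.9 and 45.5 points.

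Another site, 49.2 kb upstream (chr1:43472428-43474940), was listed in HCT116 alone. There it was among the strongest peaks of the list with both isoforms, at 99.3 and 98.9 for HIF-1α and 98.7 and 97.9 for HIF-2α, and none of the 12 libraries of the other cell lines had a peak. Its middle lay close to the 50 kb limit. The 4 farthest peaks inside that limit were these, at 49081 to 49371 bp, and the nearest peak outside it lay 51135 bp from a PFKFB3 start at percentile 47.6 in A549 HIF-1α replicate 2. The last SLC2A1 site, 14.7 kb upstream, was in PC3 HIF-1α replicate 2 only, at percentile 7.62.

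**Figure D3:**
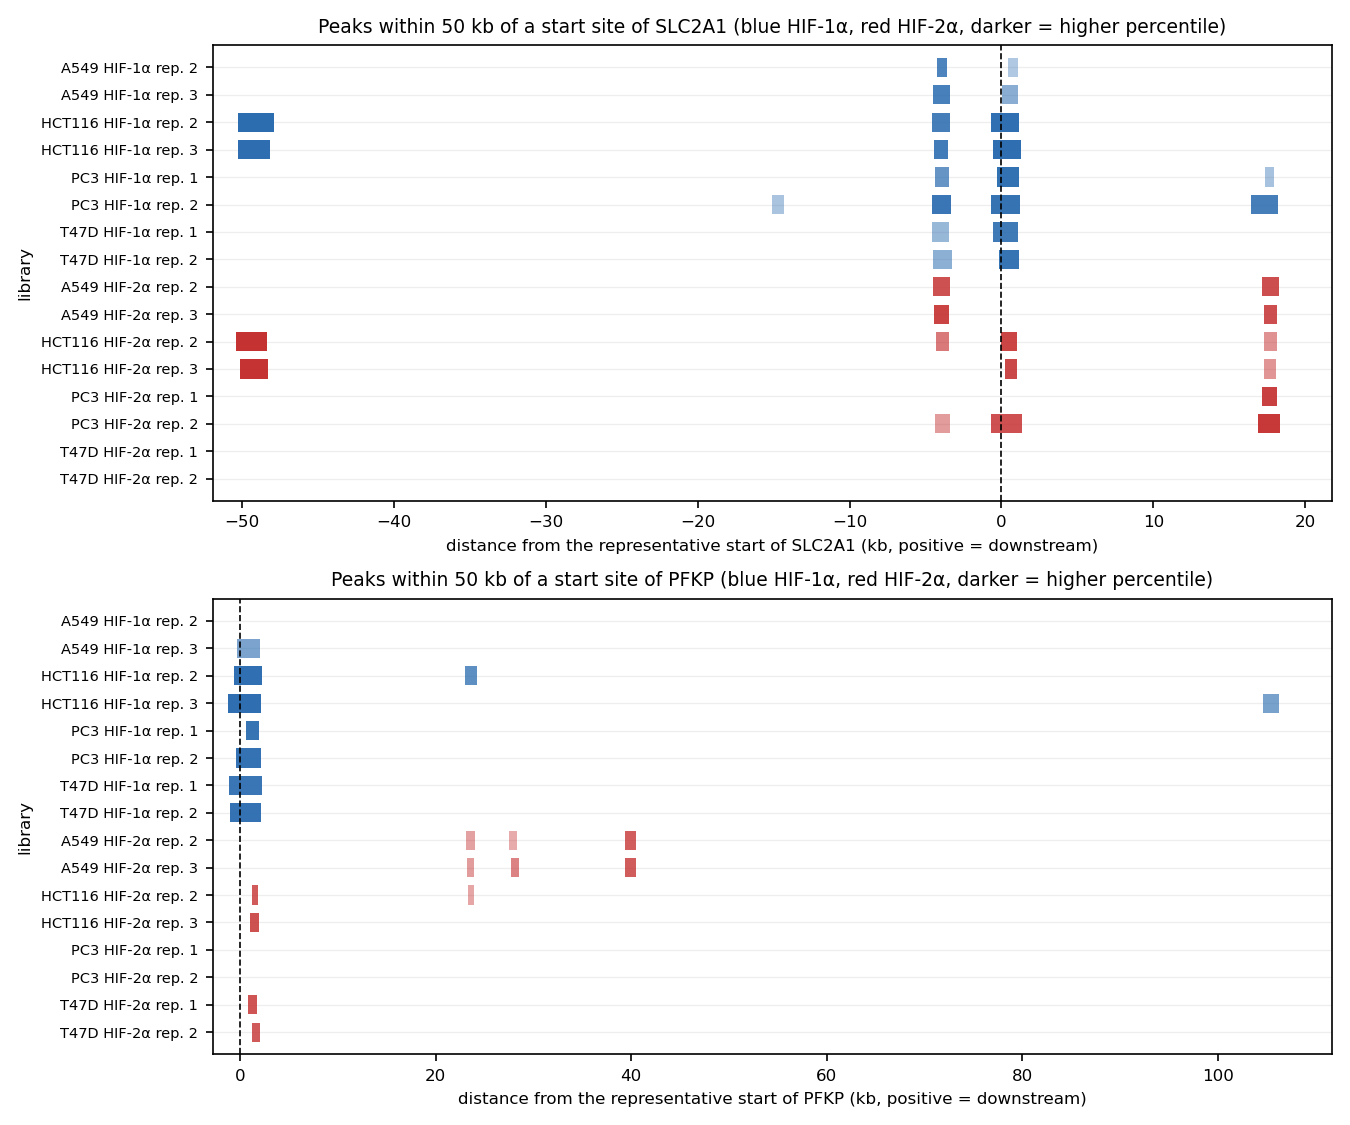
Peaks within 50 kb of a protein-coding start of SLC2A1 (top) and PFKP (bottom) in each of the 16 libraries (rows), drawn at their true width (at least 0.4 kb) against distance in kb from the representative start, positive being downstream; blue is HIF-1α, red is HIF-2α and darker bars have a higher score percentile. The SLC2A1 intronic site 17.6 kb downstream is mostly red, the distal site 49.2 kb upstream is in HCT116 only, and the intronic PFKP peaks 23.6 to 39.9 kb downstream are mostly in the A549 HIF-2α libraries.

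SLC2A3, a high-affinity transporter, had no site at its representative start. Its best supported site lay 34.6 kb upstream (chr12:8122713-8124252), outside the representative transcript but within the span of a longer SLC2A3 transcript, and SLC2A3 was the gene with the nearest protein-coding start. It was listed in 15 of the 16 libraries, PC3 HIF-2α replicate 1 being the exception. HIF-1α gave 95.8 and 97.6 (A549), 99.4 and 99.4 (HCT116), 98.0 and 98.8 (PC3) and 90.3 and 93.5 (T47D). HIF-2α gave 99.3 and 99.1 in A549, 95.7 and 94.9 in HCT116, 84.7 in PC3 replicate 2, and 79.7 and 71.0 in T47D. In A549 both HIF-2α libraries were above both HIF-1α libraries (a mean difference of -2.53 points, HIF-1α minus HIF-2α), and in the other cell lines the order was the reverse. The site carried 11 copies of RCGTG, 7.14 per kb.

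Further SLC2A3 sites were weaker and were found with HIF-2α. The site 46.3 kb upstream (chr12:8134614-8135533) was at 45.0 and 46.7 in A549 HIF-2α and at 32.1 in HCT116 HIF-2α replicate 2, and the site 24.7 kb upstream was at 29.0 in A549 HIF-2α replicate 2 only. SLC2A14, a close paralog of SLC2A3 that is its neighbour on chromosome 12, had no peak within 50 kb in any library. The authors removed reads of mapping quality under 15, a filter that takes out reads fitting both copies equally well. Whether this filter affected peaks near SLC2A14 was not tested.

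HK1, the widely expressed hexokinase, had 1 site, which spanned the start of the representative transcript (chr10:71077280-71080785). HIF-1α gave 36.6 in A549 replicate 3, 96.7 and 97.0 (HCT116), 95.7 and 98.2 (PC3) and 34.8 and 27.3 (T47D), with no peak in A549 replicate 2. HIF-2α gave 50.9 in HCT116 replicate 3 and 75.5 in PC3 replicate 2 and nothing in the other 6 libraries. The site was therefore near the top of the HIF-1α lists of HCT116 and PC3, and in the lower part of those of A549 and T47D.

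HK2, the inducible hexokinase of muscle and of many tumours, was bound at its start (chr2:75060082-75062818), with the start of the divergent transcript HK2-DT 164 bp from the middle of the site. For HIF-1α the percentiles were 59.9 and 69.8 (A549), 98.8 and 98.5 (HCT116), 95.9 and 98.5 (PC3) and 94.6 and 90.6 (T47D). HIF-2α gave 91.2 and 27.0 in HCT116 and 57.5 in PC3 replicate 2, and no peak in A549 or T47D. All 4 cell lines had their HIF-1α libraries above their HIF-2α libraries, the mean differences running from 39.6 points in HCT116 to 92.6 in T47D. A further intronic site 31.1 kb downstream was in HCT116 HIF-1α replicate 3 only, at 11.3.

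PFKFB3, the family member with the highest ratio of kinase to phosphatase activity, had its main site across the start of the representative transcript (chr10:6242364-6247509). HIF-1α gave 94.0 and 95.7 in A549, 98.2 and 98.8 in PC3 and 98.7 and 98.3 in T47D, and neither HCT116 library had a peak. HIF-2α gave 60.0 and 85.5 in A549, 12.7 in HCT116 replicate 2, 82.6 in PC3 replicate 2, and 75.2 and 85.8 in T47D. PFKFB3 was therefore the gene of the 8 whose best supported site was missing from HCT116 with HIF-1α, although those lists were the longest. HCT116 listed instead a site at an alternative start 39.1 kb upstream (chr10:6205310-6206401), at 30.8 in HIF-1α replicate 3 and 26.1 in HIF-2α replicate 3, which PC3 HIF-1α replicate 1 listed at the very bottom, at 0.0989. In 3 libraries the main site held 2 separate peaks. Its HCT116 HIF-2α peak was centred 27 bp from a start. That peak did not overlap the PC3 and T47D HIF-2α peaks, centred 1205 to 1234 bp upstream of a start.

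PFKFB4, a relative that is strongly hypoxia-responsive in many cell types, was bound across its start (chr3:48593366-48596163) in 14 libraries. With HIF-1α it was at 87.4 and 92.5 (A549), 99.7 and 99.7 (HCT116), 98.9 and 99.5 (PC3) and 97.9 and 98.0 (T47D). With HIF-2α it was at 12.1 in A549 replicate 2, 96.8 and 84.7 in HCT116, 52.9 in PC3 replicate 2, and 69.0 and 82.1 in T47D. HIF-1α libraries were above HIF-2α libraries in each cell line, by 8.96 points in HCT116 and 83.9 in A549 at the extremes. A site 38.8 kb upstream (chr3:48632137-48633958) lay 287 bp from the start of COL7A1, the nearer gene, and was found with HIF-2α only, at 38.9 and 42.9 in A549 and 69.5 in PC3 replicate 2. A site 7.4 kb upstream was nearest to UCN2 and occurred in HCT116 HIF-1α replicate 2 only, at 9.80.

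PFKL, the liver-type phosphofructokinase subunit, had a site across its start and into the first intron (chr21:45719073-45722303). The HIF-1α percentiles were 70.6 in A549 replicate 3, 97.7 and 99.2 (HCT116), 94.3 and 96.7 (PC3) and 86.7 and 91.7 (T47D). HIF-2α gave 57.2 and 23.3 in A549, 85.4 and 85.1 in HCT116, 80.3 in PC3 replicate 2 and 69.1 in T47D replicate 2. In A549 the isoforms overlapped, since 1 HIF-1α library had no peak, and in the other cell lines the HIF-1α libraries were higher. A site 39.3 kb downstream was nearest to CFAP410 and occurred in HCT116 HIF-1α, at 76.7 and 51.4, and a site 38.4 kb upstream was nearest to DNMT3L and occurred in HCT116 HIF-1α replicate 3 only, at 38.5.

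PFKP, the platelet-type subunit, had a promoter site (chr10:3108442-3111951) and a group of intronic sites. At the promoter HIF-1α gave 42.0 in A549 replicate 3, 96.5 and 97.6 (HCT116), 92.0 and 94.0 (PC3) and 89.4 and 93.8 (T47D). HIF-2α gave 68.0 and 75.0 in HCT116 and 72.1 and 68.4 in T47D, and no peak in A549 or PC3. The 7 HIF-1α peaks were 1344 to 3428 bp wide and the 4 HIF-2α peaks 579 to 955 bp. Whole lists differed in the same direction in the 2 cell lines that listed the site with HIF-2α: median peak widths there were 1212 to 1326 bp in the HIF-1α lists and 452 to 789 bp in the HIF-2α lists of HCT116 and T47D. The widths were looked at after the values were seen and were not tested.

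The intronic PFKP sites were found mainly with HIF-2α in A549, which had no HIF-2α peak at the promoter. The site 23.6 kb downstream (chr10:3132737-3133955) was at 16.4 and 19.98 in A549 HIF-2α, 11.6 in HCT116 HIF-2α replicate 2 and 63.3 in HCT116 HIF-1α replicate 2. Those 28.0 kb downstream (chr10:3137207-3138286) and 39.9 kb downstream (chr10:3149119-3150240) were in A549 HIF-2α only, at 7.996 and 39.02 and at 66.4 and 67.1. A peak beyond the end of the gene, 105.5 kb from the representative start and nearest to PITRM1, was in HCT116 HIF-1α replicate 3 only, at 44.1.

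Whether the isoforms differed at a site was tested over libraries. The statistic was the mean over the 4 cell lines of the HIF-1α minus HIF-2α score percentile, in percentage points, and the two-sided exact permutation test exchanged isoform labels within cell lines in all 1296 relabellings. It was run at every site of the series with a peak in at least 4 libraries, 1421 in all, with Benjamini-Hochberg adjustment over them. Of the 24 sites near the 8 genes 12 met that minimum. HIF-1α was higher past the threshold of 0.05 at 5 of the 12, against 10.8% of all tested sites, and HIF-2α at 0 of the 12, against 0.0704% of all tested sites. The largest p called was 0.00463 (exact permutation test), which sites with peaks in few libraries could not reach. The shares of all tested sites include such sites. Among sites with peaks in at least 6 libraries, 9 of 10 near the genes were called in either direction, against 55.7% of all 610. The excess of calls towards HIF-1α, 154 against 1 over the series, moved with the settings: it was 105 against 20 of 352 sites with equal numbers of peaks taken from every list, and 319 against 21 of 610 sites with peaks in at least 6 libraries.

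The 5 sites were the start of HK2, with a difference of 66.4 points (exact permutation p = 0.00154, adjusted p = 0.0233), PFKFB4 0.4 kb upstream (47.01, same p), HK1 0.2 kb upstream (45.0, exact permutation p = 0.00463, adjusted p = 0.0424), SLC2A1 0.4 kb downstream (43.9, exact permutation p = 0.00154, adjusted p = 0.0233) and PFKP 0.8 kb downstream (40.2, exact permutation p = 0.00463, adjusted p = 0.0424). The p of 0.00154 is the smallest the relabellings can give. All 5 lay within 1 kb of a start of their gene, where 7 of the sites were tested. Among all 850 tested sites within 1 kb of a coding start, 15.2% were called with HIF-1α higher, and beyond 1 kb 4.38% were. These shares, too, include sites with peaks in too few libraries to be called.

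The remaining 7 tested sites did not pass. The difference was 36.1 points at SLC2A1 3.9 kb upstream (adjusted p = 0.0553, exact permutation test), 29.6 at PFKL (adjusted p = 0.1496), 22.7 at PFKFB3 (adjusted p = 0.0891) and 18.5 at SLC2A3 (adjusted p = 0.0780). At SLC2A1 17.6 kb downstream it was -37.2 points, the only negative value of the 12 (exact permutation p = 0.00926, adjusted p = 0.0553), and HIF-2α was higher in 3 of 4 cell lines with no value in T47D. With no peak in T47D, this site could give no p under 0.00926, so it could not pass at this adjustment. The difference was 1.92 at PFKP 23.6 kb downstream and 0.19 at SLC2A1 49.2 kb upstream. The latter was in HCT116 alone, where the exact permutation test allows no p under 0.333. The median of the 12 was 32.9 points, against 23.9 over all tested sites, of which 78.0% were positive. Percentiles were ranked within lists of unequal length, and a site with few HIF-2α peaks could reach the minimum through HIF-1α alone, so these counts describe the sites that passed.

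**Figure D4:**
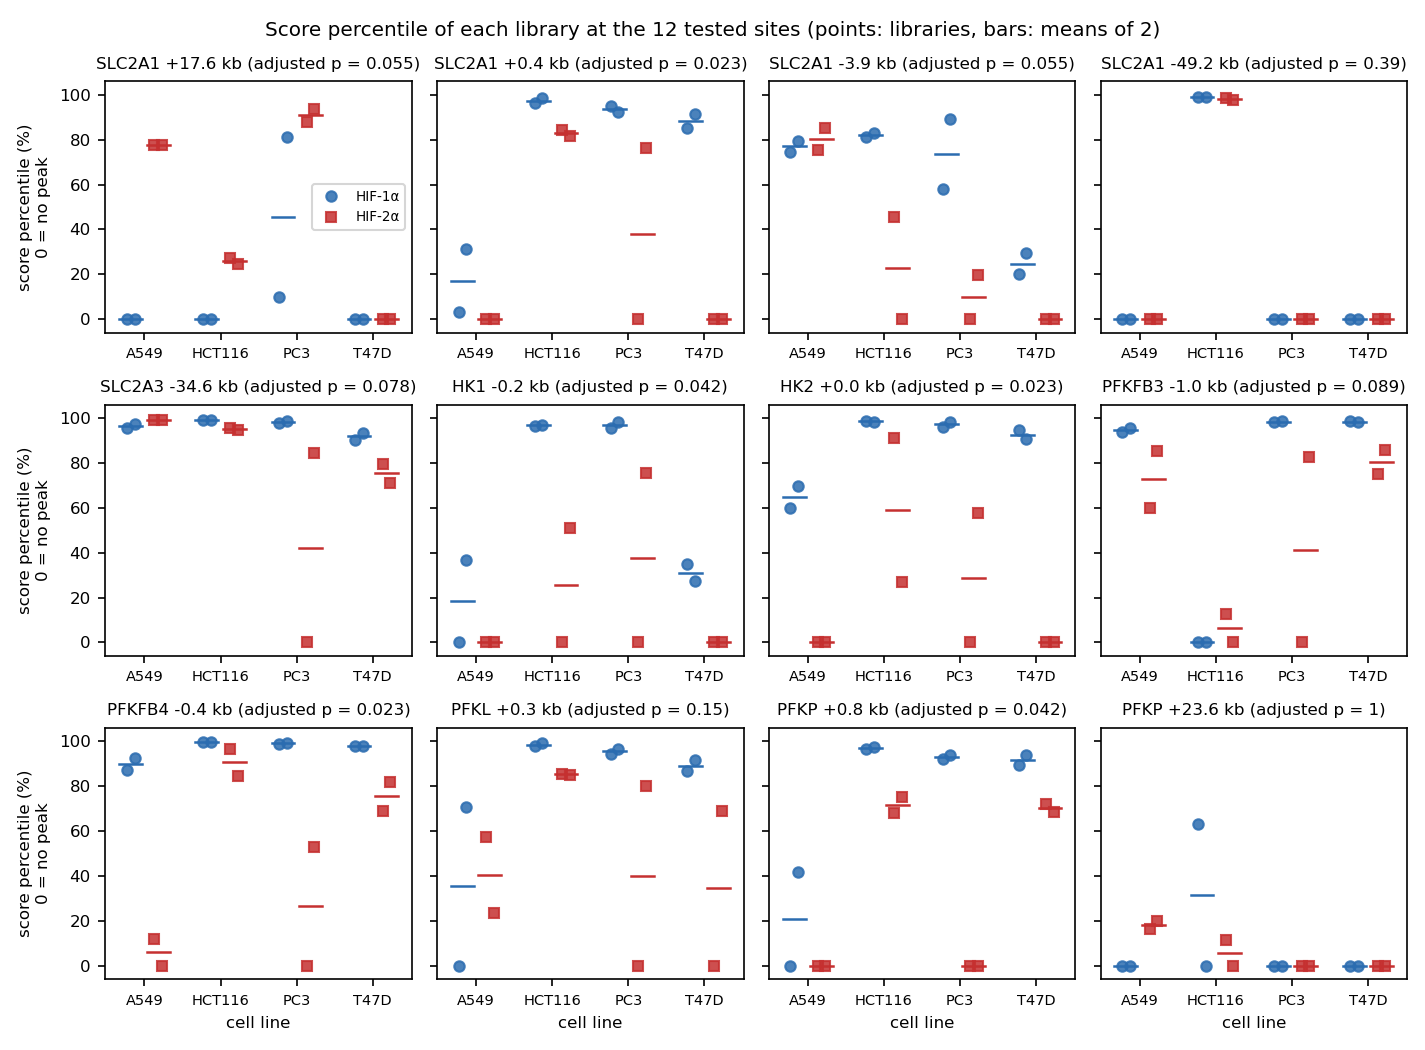
Score percentile (%; 0 is no peak) of each library at the 12 tested sites, by cell line; blue circles are HIF-1α libraries, red squares HIF-2α libraries, and bars the means of 2 replicates, with the adjusted p of the isoform test above each panel. At HK2 and PFKFB4 the blue points are above the red points in all 4 cell lines, and at SLC2A1 +17.6 kb (17.6 kb downstream) red points are above blue points in A549, HCT116 and PC3.

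**Figure D5:**
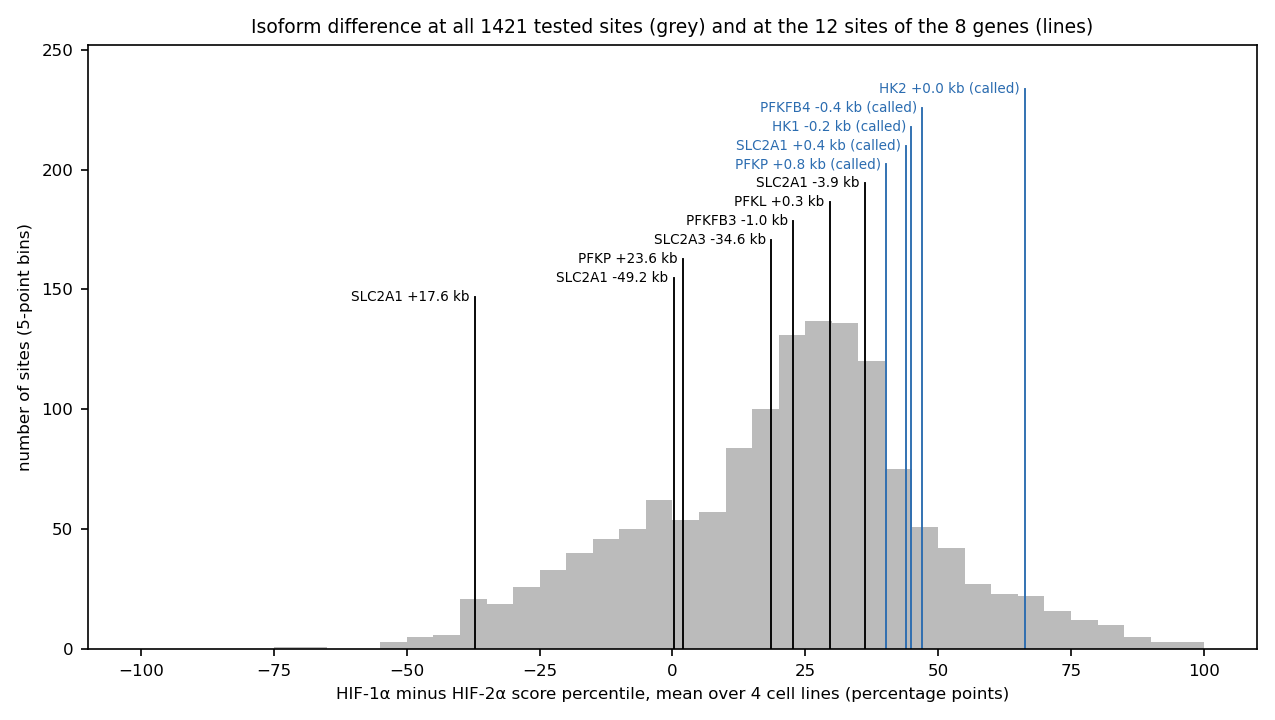
Distribution of the HIF-1α minus HIF-2α score percentile, mean over 4 cell lines, at all 1421 tested sites (grey, number of sites per 5-point bin), with the 12 sites near the 8 genes as vertical lines (blue where adjusted p is under 0.05). The 5 blue lines run from 40.2 to 66.4 points, and SLC2A1 +17.6 kb at -37.2 lies on the HIF-2α side.

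How firm these calls were depended on the site. HK2 and PFKFB4 passed in each of the 16 repeats that left out 1 library. With a whole cell line left out they passed without A549 (adjusted p = 0.0492 for both, exact permutation test) and did not pass without HCT116 (0.0638), PC3 (0.0730) or T47D (0.0964), designs with a smallest p of 0.00926, where the differences were 38.4 to 75.3 points. Nor did they pass with presence of a peak in place of its percentile (adjusted p = 0.132 and 0.673, exact permutation test). HK1 and PFKP did not pass without A549 HIF-1α replicate 3 (adjusted p = 0.0534 for each, exact permutation test), and the number of sites called fell to 3. SLC2A1 at its promoter did not pass without PC3 HIF-1α replicate 1 (adjusted p = 0.0652, exact permutation test) or replicate 2 (adjusted p = 0.0742), nor HK1 without the latter (adjusted p = 0.0742). PFKP did not pass without A549 HIF-2α replicate 2 (adjusted p = 0.0559, exact permutation test) or replicate 3 (adjusted p = 0.0539). The shortest HIF-1α list was A549 HIF-1α replicate 2, and 9 sites were called without it, the added ones being SLC2A1 3.9 kb upstream, SLC2A1 17.6 kb downstream and SLC2A3 (adjusted p = 0.0439 each) and PFKL (adjusted p = 0.0300, exact permutation test).

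Leaving out PC3 HIF-2α replicate 1 left 5 called sites. The difference then moved from 18.5 to 7.96 points at SLC2A3, from 22.7 to 12.4 at PFKFB3 and from 29.6 to 19.5 at PFKL. Both SLC2A1 sites with an adjusted p of 0.0553 crossed the threshold in other repeats too. The one 17.6 kb downstream, with HIF-2α higher, passed without any single HIF-1α library except A549 HIF-1α replicate 3 (adjusted p = 0.0425 to 0.0466 in these 7 repeats, exact permutation test) and in none of the 8 repeats without a HIF-2α library. Its unadjusted p was 0.00926 in each of the 7 repeats that passed, as with all libraries, so only the adjustment moved. The one 3.9 kb upstream passed without A549 HIF-1α replicate 2, A549 HIF-2α replicate 3, either PC3 HIF-1α library or T47D HIF-1α replicate 1 (adjusted p = 0.0431 to 0.0463, exact permutation test).

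Differences between cell lines were tested for each isoform with a one-sided exact permutation test of the variance of the 4 cell-line means, over all 105 ways of pairing the 8 libraries. After adjustment 0 sites were called for HIF-1α (0% of 3605 tested; 383 at an unadjusted p under 0.05) and 0 for HIF-2α (0% of 1308 tested; 84 unadjusted), so that the smallest p the design allows, 0.00952, did not survive the adjustment. For HIF-1α that p was reached at the SLC2A1 promoter, SLC2A3, HK2, PFKFB4 and PFKL (adjusted p = 0.217, exact permutation test). For HIF-2α it was reached at SLC2A1 17.6 kb downstream (adjusted p = 0.204, exact permutation test), where PC3 was highest, followed by A549, HCT116 and T47D. The HCT116-specific listing of SLC2A1 49.2 kb upstream gave p = 0.143 with either isoform in the same exact permutation test, since 6 of 8 libraries tied at 0.

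Ordered by the mean percentile over the 16 libraries, the best supported sites were SLC2A3 (87.3), PFKFB4 (73.2), PFKL (64.8), PFKFB3 (61.6), PFKP (55.5), HK2 (55.1), SLC2A1 3.9 kb upstream (46.3) and HK1 (38.3). SLC2A3 exceeded PFKFB4 by 14.1 points, and 2 standard errors of that difference, from the spread between replicates, came to 12.8 points. The other neighbours in this order were 0.40 to 8.82 points apart, under the 12.1 to 19.8 points that 2 standard errors came to. These standard errors took the sites as independent, although they were measured in the same 16 libraries. They therefore do not settle which neighbours differ. Without the PC3 HIF-2α pair the SD between replicates moved from 21.3 to 2.54 points at SLC2A3, from 14.3 to 5.91 at PFKFB4 and from 22 to 8.15 at PFKFB3, and by under 1.5 times at the other 5 sites. The order mixes isoforms and cell lines that differ as described above. The place of SLC2A1 also depends on the site taken: its promoter site, found in 11 libraries against 12, had a mean percentile of 52.3.

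To place the 8 genes in their pathway, 22 further genes of glucose transport, hexose phosphorylation and fructose bisphosphate turnover were examined in the same way. Peaks within 50 kb were found for 13 of them in any library, against 59.6% of all coding genes, and for 6 in both replicates of any group, against 32.9%. The 8 genes all met both rules. GPI, the isomerase that acts between hexokinase and phosphofructokinase and is also on the study's list, had its promoter site (chr19:34848212-34852249) in all 16 libraries at a mean percentile of 97.3, with HIF-1α higher by 5.23 points (exact permutation p = 0.00154, adjusted p = 0.0233). SLC2A13 (2 libraries), SLC2A4 (3 libraries) and TIGAR (3 libraries) had peaks in both replicates of HCT116 HIF-1α only, where 27.7% of coding genes had them, the SLC2A4 peak being nearest to EIF5A. Peaks near SLC2A11, in 13 libraries, were nearest to MIF, and HIF-1α was higher there by 44.04 points (exact permutation p = 0.00463, adjusted p = 0.0424). PFKFB2 had peaks in 8 libraries, the best supported site being nearest to C1orf116 with a difference of 33.2 points (adjusted p = 0.107, exact permutation test). The muscle-type subunit gene PFKM had a peak in 1 HIF-1α library, and SLC2A2, HK3, HKDC1 and PFKFB1 were among the 9 genes with none.

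Sites with the most similar pattern to each best supported site, by the mean absolute difference in percentile over the 16 libraries among all 1421 tested sites, were named by their nearest coding gene. For SLC2A3 these were sites at KDM3A and ENO1, 5.97 and 6.48 points away on average, against a median of 68.0 over all sites. Those most like HK2 were at CTDP1 (7.498) and SOS1 (8.04), those most like HK1 at NAMPT (9.62) and ATRN (9.83), and those most like PFKP at FEM1C (8.40) and SIAH2 (11.1). PFKL had FAM210A (9.53) and FAM162A (11.2), PFKFB4 had TPTE (9.09) and MRPS18A (9.65), and SLC2A1 3.9 kb upstream had ENOSF1 (11.7). PFKFB3, whose main site had no peak in HCT116 HIF-1α, had the largest distances, RARA (24.3) and CCN4 (26.2), against a median of 58.8 over all sites. These medians differed between the best supported sites, from 27.0 for HK1 to 68.0 for SLC2A3, so the distances are not on a common scale. TPTE, although the nearest coding gene to its site, lay 1164811 bp away.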

How the data were processed

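The authors carried out ChIP-seq for both HIF isoforms in 4 cell lines after 16 hours in 0.5% oxygen, and the 16 deposited peak lists were used, 2 for each cell line and isoform as given by the sample labels. HIF-1β and RNA-seq libraries were not analysed here. Per the paper's methods and the submitters' processing notes, the authors trimmed adapters (Trim Galore 0.3.3), aligned reads to GRCh37 (BWA 0.7.5a-r405), removed reads of mapping quality under 15 (SAMtools 0.1.19), reads in blacklisted regions (bedtools 2.17.0) and duplicates (Picard 2.0.1), and called peaks in every library with MACS against a control; its version is not given in the sources used here. The methods go on to a second caller (T-PIC), a filter on read counts against random background regions and a requirement that replicates overlap. The deposited lists carry MACS peak names numbered without gaps and include peaks of 1 replicate alone, so these later steps are not reflected in them, and none was applied here. Each peak's score was deposited as the caller wrote it, on a scale that is not stated. Its lowest value was 50 to 50.15 in every list. The lists hold no read counts, so depth is unknown and no counting interval was computed.

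Peaks were merged into sites at an overlap of at least 1 bp, and of several peaks of a library in a site the highest percentile was taken. Start sites were those of protein-coding transcripts of 19821 genes (GENCODE release 44 mapped to GRCh37); 29 peaks off chromosomes 1 to 22, X and Y were left out of distances. Percentiles were average ranks within a library. Isoforms were compared at sites with peaks in at least 4 libraries, and cell lines at sites with peaks in at least 2 of the 8 libraries of an isoform, by exact permutation tests with Benjamini-Hochberg adjustment and a threshold of 0.05. Every site found in at least 2 libraries is named, and sites of 1 library are mentioned; a few results on other genes are not reported here. Alternatives were presence in place of percentile, the 275 best peaks of each list, peaks scoring above 74.55 (the median), peaks cut to their central 500 bp, labels exchanged within replicate numbers, other minimum numbers of libraries, other distances (10 and 100 kb) and start sites, and fits without each library or without each cell line. Functions were tested on simulated data. Python 3.11.15, numpy 2.4.6, scipy 1.17.1 and matplotlib 3.10.9 were used. The genes, lists and tests were chosen with earlier results of these data known.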

Additional observations from a re-analysis of the deposited data

Results flagged for a closer look

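At the SLC2A3 site 34.6 kb upstream the isoforms were ordered in opposite directions in A549 and in the other cell lines. HIF-1α minus HIF-2α was -2.535 percentage points in A549, where both HIF-2α libraries were above both HIF-1α libraries, and 4.053 in HCT116, 16.57 in T47D and 56.07 in PC3, where both HIF-1α libraries were above both HIF-2α libraries. The difference between cell lines was not tested. In PC3 it rests on replicate 1, the shortest HIF-2α list, which had no peak at the site. Replicate 2 alone was at 84.7, below both HIF-1α libraries at 98.0 and 98.8.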

How the results depend on the processing

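The number of sites near the 8 genes called for an isoform difference (5 of 12, with 155 of 1421 over the series) depended on the settings. With presence in place of percentile 0 of 12 and 0 over the series were called by the exact permutation test (3 and 321 at an unadjusted p under 0.05). With HCT116, PC3 or T47D left out the counts were 0 of 10, 0 of 12 and 0 of 12, with 0 over the series each time (7, 6 and 7 near the 8 genes and 181, 188 and 261 over the series at an unadjusted p under 0.05), in designs of 216 relabellings whose smallest p is 0.00926. With A549 left out 8 of 11 and 226 over the series were called. Testing every site found in at least 2 libraries called 0 of 4722 (471 unadjusted), and at least 6 libraries called 340 of 610, or 55.7%, and 9 of 10 near the 8 genes. Without 1 library the counts ran from 3 to 9 near the genes and from 94 (without A549 HIF-1α replicate 3) to 295 (without A549 HIF-1α replicate 2) over the series, with 262 without PC3 HIF-1α replicate 1 and 265 and 266 without either T47D HIF-1α replicate.

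Equal list lengths called 6 of 9 sites and a stricter score 7 of 11, against 35.5% and 20.2% of all sites tested then. SLC2A3, PFKFB3 and PFKL passed under both (adjusted p = 0.0337, 0.0294 and 0.0192, and 0.0459, 0.0459 and 0.0440, exact permutation test). The SLC2A1 promoter did not pass with equal lengths (0.0501), nor HK1 under either (0.0847 and 0.102). The sign turned at PFKP 23.6 kb downstream with presence (-0.25) and at SLC2A1 49.2 kb upstream with equal lengths (-2.14), neither of them called. The cause of these changes was not tested.

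The labels give both isoforms the same replicate numbers. Deviations of same-numbered libraries correlated at 0.0225 to 0.0796 in the 4 cell lines (1421 sites), so the numbers were not taken as pairs. With a replicate block 0 of 12 and 0 over the series were called (8 and 297 at an unadjusted p under 0.05), the 256 relabellings allowing no p under 0.00781.

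HIF-1α peaks in all 4 cell lines were found for 4 genes, for 8 with either replicate sufficing, for 3 within 10 kb (SLC2A1, HK2 and PFKFB4) and for 4 to 7 without 1 library. The shares of coding genes were 1.52%, 3.93%, 0.706% and, without A549 HIF-1α replicate 2, 2.47%. For HIF-2α the count was 0, 4 with either replicate (SLC2A3, PFKFB3, PFKFB4 and PFKL), 1 within 100 kb (PFKFB3), and 0 to 3 without 1 library, against 0.288%, 0.888%, 0.545% and, without PC3 HIF-2α replicate 1, 0.479%. The cell-line tests called 0 sites in each setting tried, with smallest adjusted p-values of 0.168 to 0.436 (exact permutation test); presence allows no p under 0.0857, so a count of 0 says nothing about stability.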
